A study of Mus musculus with 32 samples.

Results

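Solute carriers are membrane proteins that move ions, metals, amino acids, nucleosides, sugars and other small molecules across cell membranes, and each gene is named for its family (Slc, a family number, a letter and a member number). They work as exchangers, as co-transporters driven by an ion gradient, or as carriers that let a solute run down its own gradient. In lung they are known for salt and bicarbonate balance of the airway surface, for uptake of organic cations and drugs, and for handling of zinc and other metals. The genes described here are those mouse solute carrier genes that carry an own Ensembl identifier in the deposited table and reach a mean of at least 0.1 FPKM over all 16 mice, without Slc25a34 and Slc1a7. FPKM counts sequenced fragments relative to transcript length and to the size of the library. There are 20 such genes among 99 solute carrier genes with an own identifier, and 77 of the 99 lie below the minimum. The genes were chosen by their measured mean level, so that their levels are a description and carry no test. The genes just inside the minimum were Slc16a14 (mean 0.119 FPKM) and Slc9b1 (0.117), and those just outside were Slc8a2, a sodium and calcium exchanger of neurons, at 0.0982 and Slc24a2, its potassium-dependent relative of cones and brain, at 0.0978.

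Lung RNA came from 16 male C57BL/6J mice aged 6 to 8 weeks, in 4 groups of 4. Control mice were healthy and received no dust. WTCPM mice received dust from the World Trade Center site by drops into the nose. Rosoxacin mice received the same dust and the quinolone antibacterial rosoxacin at 5 mg/kg into the peritoneum, and dexamethasone mice received the dust and the synthetic glucocorticoid dexamethasone at 0.1 mg/kg by the same route. All 3 treated groups therefore carry the dust, and no group received a drug alone. The labels used here give no time between exposure and collection. Each mouse was sequenced on 2 lanes, which were averaged, so that n counts mice.

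The table is unusual in where its signal lies. Assembled loci without a gene name hold 99.89% of all FPKM, and 262 of 361 solute carrier symbols in the name table have no identifier of their own, so reads of those genes are not analysed here. The steps between low FPKM values imply between 8720000 and 14000000 fragments per lane, with a median of 9980000. The median level of a gene described here corresponds to between 4.52 fragments per mouse (Slc9b1) and 87.8 (Slc1a2) when the longest transcript is assumed, and to between 0.591 and 17.5 when the shortest is. The column names hold a number after the letter S, called library number here, whose meaning the sources used here do not state. Rosoxacin mice carry the numbers 1 to 4 and total FPKM of 924277 to 1329954, against 704683 to 1099603 in the other 12 mice, so that rosoxacin, library number and total cannot be told apart. Of 17 lists of cell type markers 9 have a gene with an own identifier. Those of alveolar, ciliated, fibroblast, macrophage, muscle and lymphocyte cells have none, and the lung label could not be checked against them. The 2 neutrophil markers of 6 (Cxcr2 and Ly6g) summed to 0.272 to 0.873 FPKM in control, 0.366 to 0.599 in WTCPM, 0.651 to 1.37 in rosoxacin and up to 1.65 in dexamethasone mice, and every mouse that received a drug lay above every WTCPM mouse. Ly6g was at 0 in every WTCPM and rosoxacin mouse, so that these sums are nearly all Cxcr2. The 2 adipocyte markers of 10 (Lep and Hcar1) summed to 0.366 to 1.9, 0.0953 to 0.137, 0.127 to 0.53 and 0.231 to 0.488 in the same order. The mesothelial marker Itln1, 1 of 4, was at 0.157 to 0.633 FPKM in rosoxacin mice, 0 to 0.273 in dexamethasone mice, 0 to 0.0584 in WTCPM mice and 0 in control mice. The 2 eosinophil and mast cell markers of 5 (Il5ra and Gata1) summed to 0.409 to 0.563 FPKM in dexamethasone mice, above the 0.245 to 0.378 of WTCPM mice and the 0.167 to 0.317 of rosoxacin mice, with 0.221 to 0.464 in control mice. The part of these cells in any value below, Slc39a12 included, was not tested. In bulk tissue, fewer cells of a type and less RNA per cell cannot be told apart.

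The 3 genes whose rosoxacin and dexamethasone mice did not overlap are shown by the stretch upstream of their start. Of all 2749 genes tested, 3.46% lay higher in all 4 rosoxacin mice than in all 4 dexamethasone mice, and 9.68% lower. Of the 3 shown, only Slc39a12 passed the test described below. Sequences and starts are from RefSeq on GRCm38.p6, 5′ to 3′ on the strand of the gene, and end at the base before the earlier of the RefSeq and GENCODE starts. Capitals mark matches to TATAAA, the TATA box, or to TGCNCNC, the core of the metal response element bound by the zinc sensor Mtf1, on either strand.
Slc39a12: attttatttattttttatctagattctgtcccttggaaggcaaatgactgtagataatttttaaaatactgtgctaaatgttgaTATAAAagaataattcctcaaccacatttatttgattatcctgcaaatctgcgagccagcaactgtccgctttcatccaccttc
Slc22a4: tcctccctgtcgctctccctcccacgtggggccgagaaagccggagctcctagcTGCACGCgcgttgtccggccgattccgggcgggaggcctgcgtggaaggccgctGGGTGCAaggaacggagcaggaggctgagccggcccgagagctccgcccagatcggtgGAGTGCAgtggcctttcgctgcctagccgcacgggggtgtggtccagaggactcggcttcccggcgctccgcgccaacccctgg
Slc24a1: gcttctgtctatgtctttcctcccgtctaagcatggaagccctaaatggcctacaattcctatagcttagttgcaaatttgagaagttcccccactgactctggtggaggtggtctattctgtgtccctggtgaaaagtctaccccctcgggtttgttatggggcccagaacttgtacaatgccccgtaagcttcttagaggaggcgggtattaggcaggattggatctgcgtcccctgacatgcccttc

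The Slc39a12 stretch covers chr2:14388148-14388315 on the plus strand, the Slc22a4 stretch chr11:54028105-54028354 and the Slc24a1 stretch chr9:64951621-64951870, both on the minus strand. TATAAA stands at bases 85 to 90 of the 168 bases for Slc39a12. TGCNCNC or its reverse complement stands at 3 places in the 250 bases for Slc22a4, and neither motif nor AGAACA, a half-site of the glucocorticoid receptor, was found in the 250 bases for Slc24a1. Over windows of 300 bases around the start, TGCNCNC was found in 13 of 19 windows of the 17 matched genes, against 51% of 32851 windows of all genes. The windows with it include those of Slc22a4, Slc30a2 and Slc39a12. For Slc39a12 the match does not lie within the shorter stretch shown above. TATAAA was found in 3 (Slc12a3, Slc39a12 and Slc4a10), against 13.6%, and AGAACA in 1 (Slc29a2), against 19%. The full palindromic site of the glucocorticoid receptor, 2 such half-sites facing each other over 3 bases, was found in 0 of the 19 windows, against 0.00913% of all. These matches describe letters in a window and do not show binding.

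Across the substrate classes, the genes described here were spread unevenly. Inorganic ion carriers gave 5 of 17 genes with an own identifier, amino acid and peptide carriers 3 of 14, and nucleoside and nucleotide sugar carriers 3 of 7. Carboxylate carriers gave 2 of 5, transition metal carriers 2 of 5, neurotransmitter carriers 2 of 16, and the class of vitamins, lipids, urea and other solutes 2 of 4. Of the organic anion, cation and drug carriers 1 of 19 reached the minimum, and 13 of these 19 were listed at 0 in every mouse, among them Slc22a6, Slc22a8 and Slc22a2, known as renal drug transporters. None of 6 sugar carriers and none of 6 mitochondrial carriers is included. The mitochondrial carrier Slc25a34 and the amino acid carrier Slc1a7 reached the minimum. They are counted among the genes with an own identifier but were left out by the rule. In all, 32 of the 99 genes were listed at 0 in every mouse, such as Slc32a1, the vesicular carrier of GABA, Slc30a8, the zinc carrier of insulin granules, and Slc26a5, the motor protein of hair cells.

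Levels of the 20 genes were low, with means over the 16 mice from 0.117 to 0.364 FPKM. The mean of a group reached 0.1 FPKM in all 4 groups for 14 genes and in 3 groups for the other 6. Of 320 values of a gene in a mouse, 8 were 0, in 6 genes. The highest group mean exceeded the lowest by a factor of 1.3 (Slc1a2) to 4.23 (Slc39a12), with a median of 1.72, and by more than 2 in 7 genes. The highest mean lay in control for 6 genes, in WTCPM for 5, in rosoxacin for 5 and in dexamethasone for 4. The lowest lay in dexamethasone for 8, in rosoxacin for 7, in WTCPM for 4 and in control for 1. These counts were not set against those of all genes. The direction of rosoxacin against WTCPM depended on the scaling for 10 of the 20 genes. Summed over the 20 genes, the level was 4.58 ± 0.653 FPKM in control mice, 4.42 ± 0.224 after dust alone, 4.08 ± 0.426 with added rosoxacin and 4.43 ± 0.225 with added dexamethasone (SD, n = 4 each). These sums overlap between all groups.

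**Figure D1:**
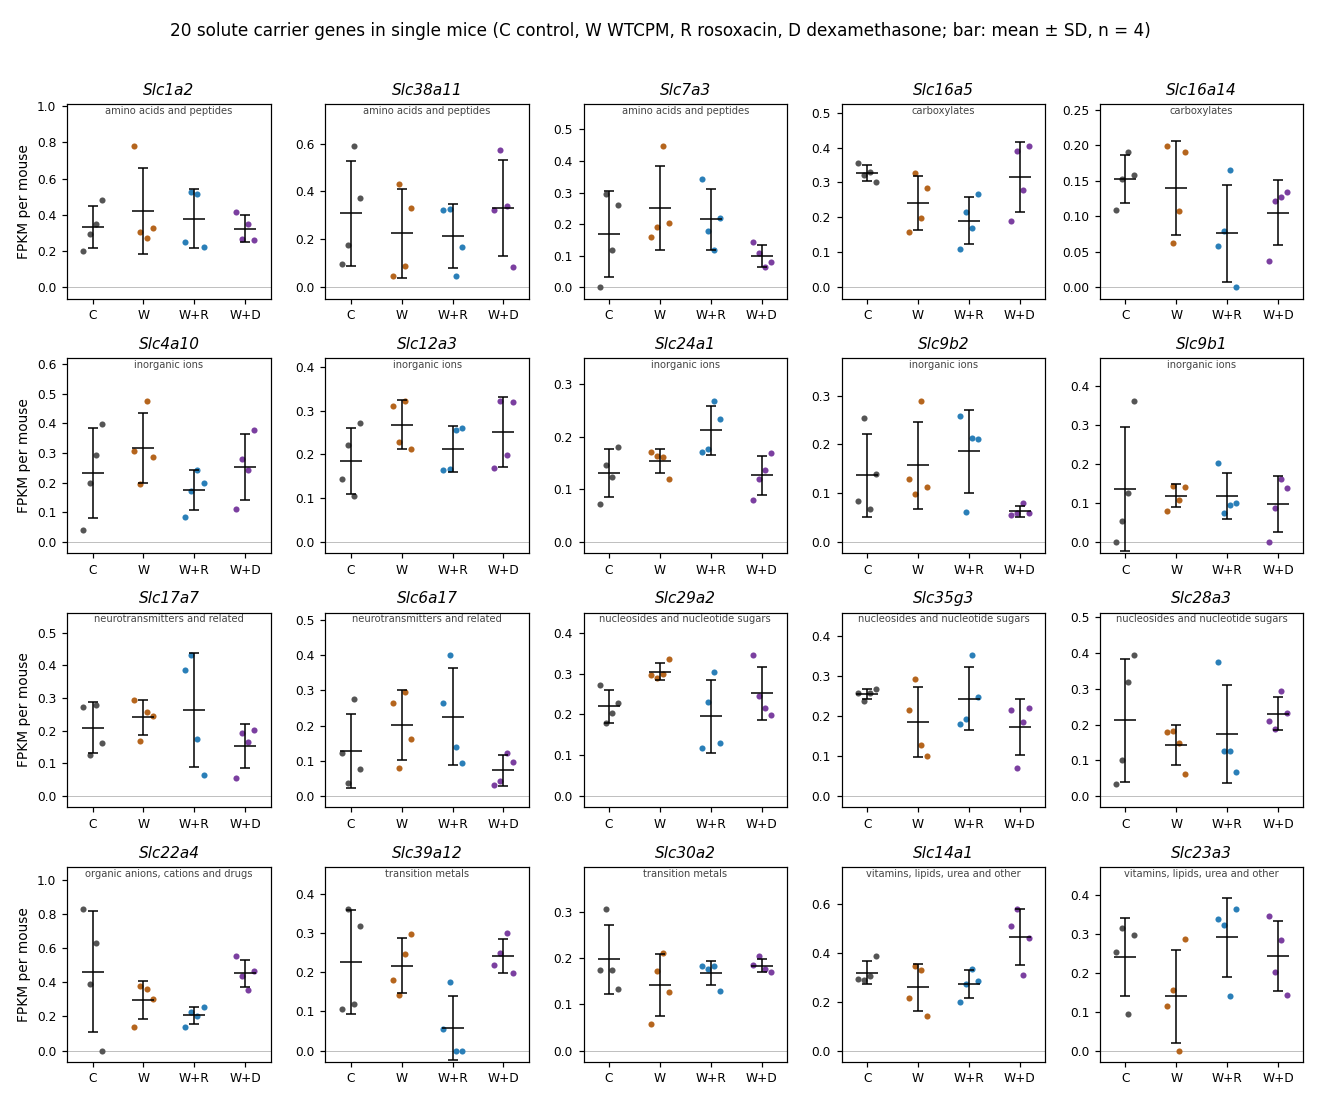
FPKM of each of the 20 solute carrier genes (vertical axes, a scale for each gene) in single mice of the 4 groups (horizontal axes: C control, W WTCPM, W+R with rosoxacin, W+D with dexamethasone), with mean and SD of 4 mice. Slc39a12 is listed at 0 in 2 rosoxacin mice, and its 4 rosoxacin mice lie below its 4 dexamethasone mice.

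Of the 20 genes, the transition metal carrier Slc39a12 had the largest ratio of highest to lowest group mean, 4.23. The ratio of Slc30a2, of the same class, was 1.39. Slc39a12 (chromosome 2, 14388316 to 14494977, plus strand, mm10) encodes ZIP12, an importer that brings zinc into the cytosol and that is linked in rats to the response of lung vessels to low oxygen. Its levels were 0.107, 0.361, 0.118 and 0.319 FPKM in control mice 1 to 4, and 0.179, 0.141, 0.246 and 0.299 in WTCPM mice. In rosoxacin mice they were 0.0544, 0.174, 0 and 0, and in dexamethasone mice 0.219, 0.249, 0.3 and 0.198. All rosoxacin values lay below all dexamethasone values, while rosoxacin mouse 2 lay inside the range of control and WTCPM mice. By lane, 6 of 8 rosoxacin values were 0, against 2 of 8 in control, 1 of 8 in WTCPM and 0 of 8 in dexamethasone mice. A count of 0 allows up to 0.0613 FPKM in rosoxacin mouse 3 and 0.0562 in mouse 4 for the longest transcript, taking 3 fragments as the limit, and up to 0.306 and 0.28 for the shortest. These limits cover counting error only.

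Slc39a12 was lower with rosoxacin than with dexamethasone, with a change of -1.24 on the log2(FPKM + 0.1) scale (SE 0.34, 95% interval -1.97 to -0.52), and passed limma's test over 2749 annotated genes at an adjusted p of 0.04999, just under the threshold of 0.05. Of those 2749 genes 4.26% passed in this comparison and 3.71% passed with a lower level, and the median gene changed by -0.15, relative to which the Slc39a12 change was -1.10. The call did not hold in most alternatives. It held in 4 of 15 other settings, with adjusted p from 0.0169 to 0.455 by limma, where 0% to 29.5% of all genes or features passed. Of 16 fits that each left out 1 mouse, it held in 2 (without control 1 or without rosoxacin 2). Over these fits its adjusted p by limma ran from 0.0301 to 0.131, and 0.509% to 5.89% of all genes passed. Every one of these settings and fits gave a lower level with rosoxacin, from -2.40 to -0.23 on the log2 scale. Against WTCPM the change was -1.11 (SE 0.34, adjusted p = 0.121 by limma) and against control -1.09 (SE 0.34, adjusted p = 0.0915), neither of which passed. Rosoxacin is the shared arm of these 3 comparisons. Over all 4 groups at once the limma F test gave adjusted p = 0.125.

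The other metal carrier, Slc30a2, encodes ZnT2, which loads zinc into vesicles. Its levels were 0.174, 0.306, 0.175 and 0.134 FPKM in control mice, 0.0568, 0.172, 0.212 and 0.126 in WTCPM mice, 0.184, 0.177, 0.182 and 0.129 in rosoxacin mice, and 0.186, 0.204, 0.176 and 0.17 in dexamethasone mice. The groups overlapped, and rosoxacin against WTCPM gave 0.19 on the log2 scale (95% interval -0.32 to 0.70). No mouse was at 0 for Slc30a2. The summed level of both metal carriers was 0.225 ± 0.0951 FPKM in rosoxacin mice against 0.357 ± 0.102 in WTCPM, 0.423 ± 0.18 in control and 0.426 ± 0.048 in dexamethasone mice (SD, n = 4 each).

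Among organic anion, cation and drug carriers only Slc22a4 reached the minimum. It encodes OCTN1, a carrier of the antioxidant ergothioneine and of some cationic drugs (chromosome 11, 53983123 to 54028090, minus strand). Control mice 1 to 4 held 0.828, 0.391, 0.632 and 0 FPKM, the widest spread of any group of this gene, and WTCPM mice 0.14, 0.38, 0.362 and 0.3. Rosoxacin mice held 0.14, 0.224, 0.204 and 0.254, all below the 0.552, 0.437, 0.354 and 0.464 of dexamethasone mice. The change of rosoxacin against dexamethasone was -0.86 on the log2 scale (95% interval -1.88 to 0.17), and its adjusted p of 0.343 by limma did not pass. Control mouse 4 decided another comparison of this gene. Without that mouse, rosoxacin against control was -1.20 with adjusted p = 0.0462 by limma, and with it -0.50 with adjusted p = 0.632.

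Among the inorganic ion carriers, Slc24a1 had the smallest SD between mice of a group, 0.0394 FPKM. It encodes NCKX1, a sodium, potassium and calcium exchanger known from rod photoreceptors (chromosome 9, 64922861 to 64951607, minus strand), and it has 1 transcript of 5213 bases, so that its fragments could be estimated. Levels were 0.0721, 0.147, 0.124 and 0.18 FPKM in control mice, 0.171, 0.164, 0.161 and 0.12 in WTCPM mice, 0.171, 0.176, 0.269 and 0.233 in rosoxacin mice, and 0.0788, 0.12, 0.137 and 0.169 in dexamethasone mice. The rosoxacin mice lay above the dexamethasone mice and, by less than the third decimal, above the WTCPM mice. These levels rest on about 9 fragments in control mouse 1 (Poisson 95% interval 4.12 to 17.1, or 0.0336 to 0.14 FPKM) and up to 26 in rosoxacin mouse 3 (17 to 38.1, or 0.178 to 0.4 FPKM). The change of rosoxacin was 0.47 against dexamethasone (SE 0.23, adjusted p = 0.248 by limma) and 0.29 against WTCPM (SE 0.23, adjusted p = 0.564), neither of which passed.

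Slc9b2 and Slc9b1, neighbouring genes on chromosome 3 (135307700 to 135345387 and 135348029 to 135397827), encode the sodium and proton exchangers NHA2 and NHA1. Slc9b2 was at 0.0545, 0.0583, 0.0787 and 0.0584 FPKM in dexamethasone mice, all below the 0.128, 0.0987, 0.29 and 0.112 of WTCPM mice. Lane 2 was at 0 in every dexamethasone mouse. Lane 1 was at 0.109 to 0.157 FPKM in these mice, inside the 0.0835 to 0.185 of lane 1 in WTCPM mice. Control mice held 0.084, 0.254, 0.0667 and 0.14, and rosoxacin mice 0.258, 0.0612, 0.213 and 0.21. The low dexamethasone values thus overlapped both of these groups. Dexamethasone against WTCPM gave -0.61 (SE 0.32, adjusted p = 0.95 by limma) and changed sign with lane 1 alone (0.09, adjusted p = 0.986). Rosoxacin against dexamethasone gave 0.75 (SE 0.32, adjusted p = 0.182 by limma), which did not pass either. Slc9b1 spanned 0 to 0.362 FPKM in control mice and had the highest ratio of SD to mean of the 20 genes, 0.724. Its group means lay between 0.0962 and 0.135 FPKM, closer together than those of Slc9b2.

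Slc4a10, a sodium-driven bicarbonate carrier best known from neurons, averaged 0.316 ± 0.118 FPKM in WTCPM and 0.174 ± 0.0677 in rosoxacin mice (SD, n = 4 each), with control from 0.0388 to 0.399 and dexamethasone from 0.11 to 0.378. Slc12a3, the thiazide-sensitive sodium and chloride carrier of the kidney, averaged 0.268 ± 0.0567 in WTCPM against 0.185 ± 0.0752 in control mice, and its range of 0.212 to 0.323 overlapped the control range of 0.105 to 0.271. All 5 inorganic ion carriers had higher log2 values after dust, as did 53.4% of all genes. All 5 had lower ones with dexamethasone than with dust alone, where 50.5% of all genes had higher ones. None of the 5 passed, and both comparisons use the same WTCPM mice. For Slc9b1 the mean FPKM was lower after dust (0.118 against 0.135 in control mice), so its direction depends on the scale. For the class sum, WTCPM mice averaged 1.01 ± 0.242 FPKM against 0.819 ± 0.42 in control and 0.788 ± 0.272 in dexamethasone mice, with overlapping values.

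In dexamethasone against WTCPM mice the smallest p belonged to Slc14a1. It encodes UT-B, a urea channel of red cells and of vessels in the kidney. Its levels were 0.511, 0.579, 0.308 and 0.462 FPKM in dexamethasone mice and 0.217, 0.346, 0.329 and 0.142 in WTCPM mice, so that dexamethasone mouse 3 lay inside the WTCPM range. Control mice held 0.293, 0.29, 0.305 and 0.388, and rosoxacin mice 0.198, 0.273, 0.336 and 0.283. Dexamethasone against WTCPM gave 0.67 on the log2 scale (SE 0.23, 95% interval 0.18 to 1.17), with an unadjusted p of 0.0102 and an adjusted p of 0.861 by limma, which did not pass. Klf1, the 1 erythroid marker with an own identifier, lay between 0 and 0.213 FPKM in WTCPM and between 0 and 0.102 in dexamethasone mice, and its part in the Slc14a1 values was not tested. Slc23a3, a member of the ascorbate carrier family whose own substrate is not established, was at 0.114, 0.156, 0 and 0.288 FPKM in WTCPM and 0.338, 0.324, 0.14 and 0.364 in rosoxacin mice. These groups overlapped, and the log2 change of 0.82 (SE 0.37, adjusted p = 0.289 by limma) did not pass. Summed, the 2 genes averaged 0.708 ± 0.132 FPKM in dexamethasone against 0.398 ± 0.0838 in WTCPM mice (SD, n = 4 each), which was not tested, and neither gene passed alone.

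Both carboxylate carriers had their lowest mean in rosoxacin mice. Slc16a5 encodes MCT6, a relative of the lactate carriers that is known to transport drugs such as bumetanide. Control mice held 0.357, 0.322, 0.331 and 0.302 FPKM, a narrow range, and rosoxacin mice 0.111, 0.217, 0.17 and 0.266, all below it. WTCPM mice (0.157, 0.326, 0.198 and 0.284) and dexamethasone mice (0.191, 0.391, 0.278 and 0.404) overlapped both. Rosoxacin against control gave -0.58 (SE 0.24, adjusted p = 0.191 by limma) and did not pass. Slc16a14, a family member without an established substrate, averaged 0.076 ± 0.0689 FPKM in rosoxacin mice, 1 of them at 0, against 0.153 ± 0.0338 in control, 0.14 ± 0.0663 in WTCPM and 0.105 ± 0.0462 in dexamethasone mice (SD, n = 4 each). The sum of both was 0.267 ± 0.0707 FPKM in rosoxacin against 0.481 ± 0.0275 in control mice (SD, n = 4 each), which was not tested. An antisense gene, Gm11695, overlaps Slc16a5, and the sources used here do not say whether the counting used strand.

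Of the nucleoside and nucleotide sugar carriers, 1 of 3 had a higher log2 value after dust. Slc29a2 encodes ENT2, which lets nucleosides run down their gradient. The deposited values of Slc29a2 cover 1 transcript, against 6 in GENCODE M21, so they may be only part of the gene's level. Its WTCPM mice (0.297, 0.29, 0.298 and 0.335 FPKM) lay above all control mice (0.273, 0.178, 0.203 and 0.228), while rosoxacin mice held 0.117, 0.231, 0.305 and 0.129 and dexamethasone mice 0.346, 0.246, 0.216 and 0.199. WTCPM against control gave 0.34 (SE 0.23, adjusted p = 0.903 by limma), and rosoxacin against WTCPM -0.50 (SE 0.23, adjusted p = 0.286). Slc28a3, the sodium-driven nucleoside carrier CNT3, was at 0.21, 0.187, 0.294 and 0.232 FPKM in dexamethasone mice, above the 0.18, 0.183, 0.149 and 0.0613 of WTCPM mice, while control mice spread from 0.0329 to 0.395. Slc35g3, of a family of nucleotide sugar carriers, was at 0.256, 0.236, 0.258 and 0.267 FPKM in control mice, above the 0.215, 0.0704, 0.184 and 0.219 of dexamethasone mice. None of these 3 genes passed in any of the 6 comparisons. Gm3131, a processed pseudogene, overlaps Slc28a3 on the other strand.

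The neurotransmitter carriers had their lowest means with dexamethasone. Slc6a17 encodes NTT4, which loads neutral amino acids into synaptic vesicles. It was at 0.0306, 0.0438, 0.122 and 0.0976 FPKM in dexamethasone, 0.265, 0.0788, 0.297 and 0.163 in WTCPM, 0.265, 0.401, 0.14 and 0.0953 in rosoxacin, and 0.123, 0.0364, 0.276 and 0.0775 in control mice. The dexamethasone values overlapped each of the other groups. Dexamethasone against WTCPM gave -0.76 (SE 0.37, adjusted p = 0.936 by limma). Slc17a7, the vesicular glutamate carrier VGLUT1, averaged 0.154 ± 0.0675 FPKM in dexamethasone and 0.264 ± 0.175 in rosoxacin mice (SD, n = 4 each), where single mice spread from 0.0633 to 0.432.

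Of the amino acid carriers, Slc1a2 encodes GLT-1, the main glutamate uptake carrier of astrocytes, and had the highest mean of the 20 genes, 0.364 FPKM. WTCPM mouse 1 was at 0.779 FPKM and the other 15 mice between 0.201 and 0.525, with group means of 0.333 for control, 0.421 for WTCPM, 0.379 for rosoxacin and 0.323 for dexamethasone mice. The antisense gene Gm13872 overlaps it. Slc7a3 encodes CAT3, a carrier of arginine and lysine. It was at 0.145, 0.108, 0.0642 and 0.0817 FPKM in dexamethasone mice, below all 4 WTCPM mice at 0.159, 0.19, 0.447 and 0.205, while control mice ranged from 0 to 0.294. The change was -0.76 (SE 0.38, adjusted p = 0.95 by limma). Slc38a11, of a family of sodium-coupled neutral amino acid carriers, ranged from 0.0985 to 0.589 FPKM in control mice, 0.0488 to 0.433 in WTCPM mice, 0.0479 to 0.325 in rosoxacin mice and 0.083 to 0.573 in dexamethasone mice, so that all 4 groups overlapped.

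**Figure D2:**
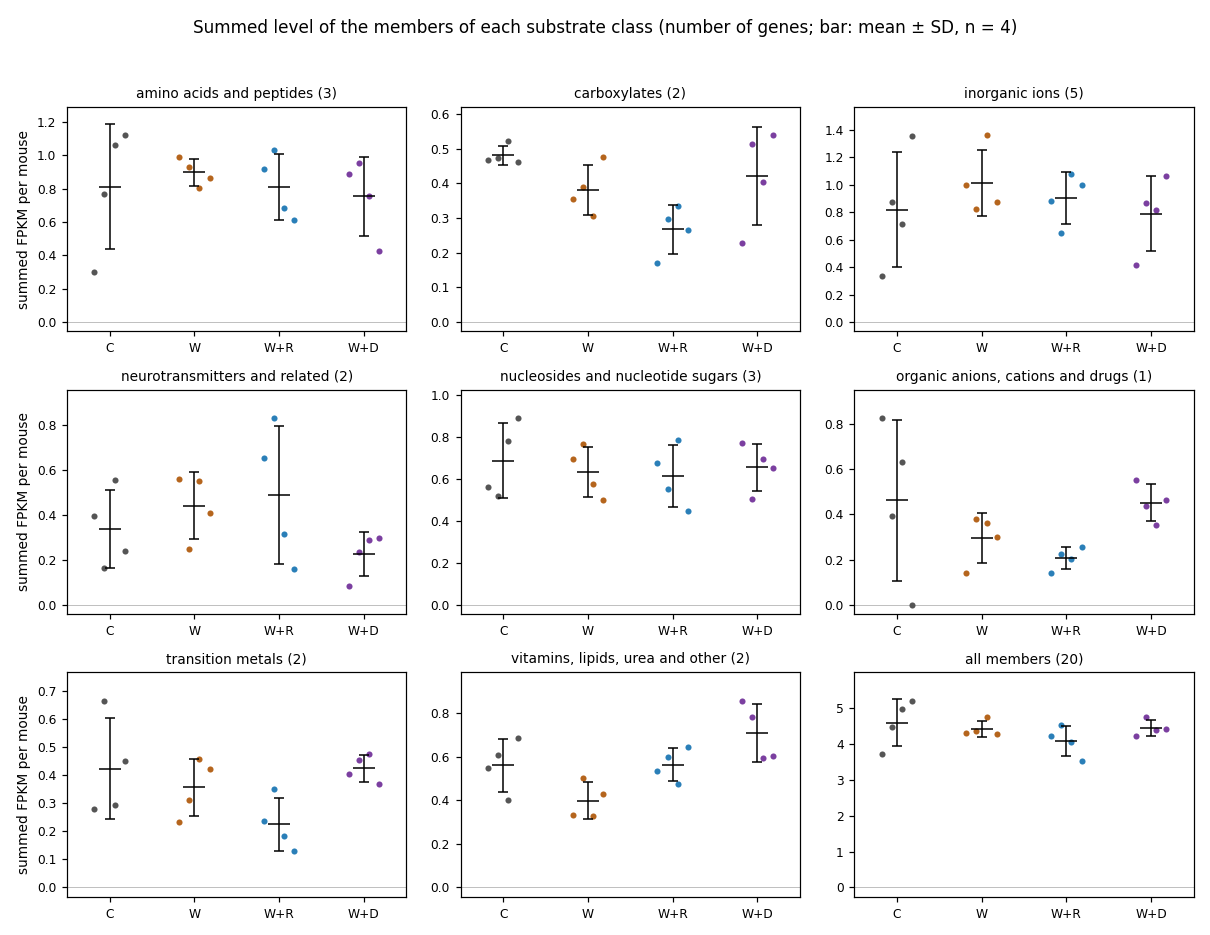
Summed FPKM of those of the 20 genes in each substrate class, in single mice of the 4 groups, with mean and SD of 4 mice. Vertical axes show the sums, and titles give the number of genes. Horizontal axes show C control, W WTCPM, W+R with rosoxacin and W+D with dexamethasone. The sum over all 20 genes overlaps between groups, and the sums of single classes were not tested.

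Read by comparison, the contrast of WTCPM with control mice addresses the effect of dust. By limma 0 of the 20 genes passed, where 0% of all 2749 genes passed, and 0 had an unadjusted p under 0.05, against 5.13% of all genes. Slc29a2 alone did not overlap between the groups, being higher in all 4 WTCPM mice, as were 1.86% of all genes, and 0 were lower in all 4, as were 1.16%. Log2 changes were above 0 in 11 genes, against 53.4% of all genes, and ranged from -0.61 (Slc23a3, SE 0.37, adjusted p = 0.894 by limma) to 0.51 (Slc7a3). Their median was 0.07, against 0.03 over all genes. Besides Slc23a3 and Slc29a2, the smallest p belonged to Slc12a3 (0.39), Slc16a5 (-0.35) and Slc35g3 (-0.37), none of them passing. Of the 20 intervals 13 lay within 1 unit of log2(FPKM + 0.1) either way. A change of that size on this scale was not covered for these, while for the other 7 it was. Because 0.1 is added, a doubling or halving of FPKM is less than 1 unit here, so the 13 intervals may still cover it.

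The contrast of rosoxacin with WTCPM mice sets dust with that drug against dust alone. Here the drug cannot be told apart from library number and total FPKM. By limma 0 of the 20 genes passed, where 0.546% of all genes did, and 3 had an unadjusted p under 0.05 (Slc39a12, Slc29a2 and Slc23a3), against 15.7% of all genes. Log2 changes were above 0 in 9 genes, against 36.3% of all genes, and their median was -0.03, against -0.16 over all genes. With median-of-ratios scaling these medians were 0.15 and 0.02, with quantile normalisation 0.13 and -0.01, and with rescaling to TPM -0.33 and -0.46, so that the direction of the 20 genes' median depends on the scaling. The 20 genes' median minus that of all genes lay between 0.12 and 0.14 under each of these scalings, and 13 of the 20 genes lay above the median of all genes as deposited. Relative to that median, Slc39a12 changed by -0.95, Slc29a2 by -0.34, Slc4a10 by -0.44, Slc16a14 by -0.33 and Slc23a3 by 0.98. Slc39a12 and Slc29a2 passed with rescaling to TPM, at adjusted p of 0.0338 and 0.0439 by limma, where 9.82% of all genes passed. Slc24a1 alone lay higher in all 4 mice, as did 2.18% of all genes, and no gene lay lower in all 4, as 8.95% of all genes did.

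The contrast of dexamethasone with WTCPM mice addresses the glucocorticoid in dust-exposed lungs. By limma 0 of the 20 genes passed, where 0% of all genes did, and Slc14a1 alone had an unadjusted p under 0.05, against 5.38% of all genes. Log2 changes were above 0 in 8 genes, against 50.5% of all genes, with a median of -0.13 against 0.00. Slc28a3 lay higher in all 4 dexamethasone mice (1.75% of all genes) and Slc7a3 and Slc9b2 lower (2.33% of all genes). Slc6a17 and Slc23a3 (-0.76 and 0.64) complete the 5 smallest p, at adjusted p of 0.936 and 0.95.

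Against each other, rosoxacin and dexamethasone mice differed in 1 of 20 genes by limma, Slc39a12, where 4.26% of all genes passed. Log2 changes were above 0 in 9 genes, against 38.9% of all genes, and in 6 to 11 genes under the other 3 scalings. An unadjusted p under 0.05 was found for 5 (Slc39a12, Slc14a1, Slc9b2, Slc6a17 and Slc16a5), against 20.7% of all genes. Relative to the median of all genes, Slc14a1 changed by -0.44 and Slc16a5 by -0.37, and Slc9b2 by 0.90 and Slc6a17 by 0.99. Slc24a1 lay higher in all 4 rosoxacin mice (3.46% of all genes) and Slc22a4 and Slc39a12 lower (9.68%). Rosoxacin against control gave 0 passing genes, where 3.31% of all genes passed and 2.66% passed with a lower level, and Slc16a5 and Slc39a12 at an unadjusted p under 0.05, against 19.3%. Log2 changes were above 0 in 9 genes, against 41.5%, and in 13 with median-of-ratios scaling, 11 with quantile normalisation and 4 with rescaling to TPM. As deposited, 0 genes lay higher in all 4 mice, as 2.15% of all genes did. Dexamethasone against control gave 0, where 0.0364% passed, and 0 at an unadjusted p under 0.05, against 4.98%. Here 9 log2 changes were above 0, against 52.1%, and 0 genes lay higher in all 4 mice, as 1.35% of all genes did. Slc16a5 lay lower in all 4 rosoxacin mice than in control (9.02% of all genes) and Slc35g3 lower in all 4 dexamethasone mice (1.05%). The 6 comparisons share their groups with each other, and counts of 1 or 2 in 20 genes are too few to set against these shares.

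**Figure D3:**
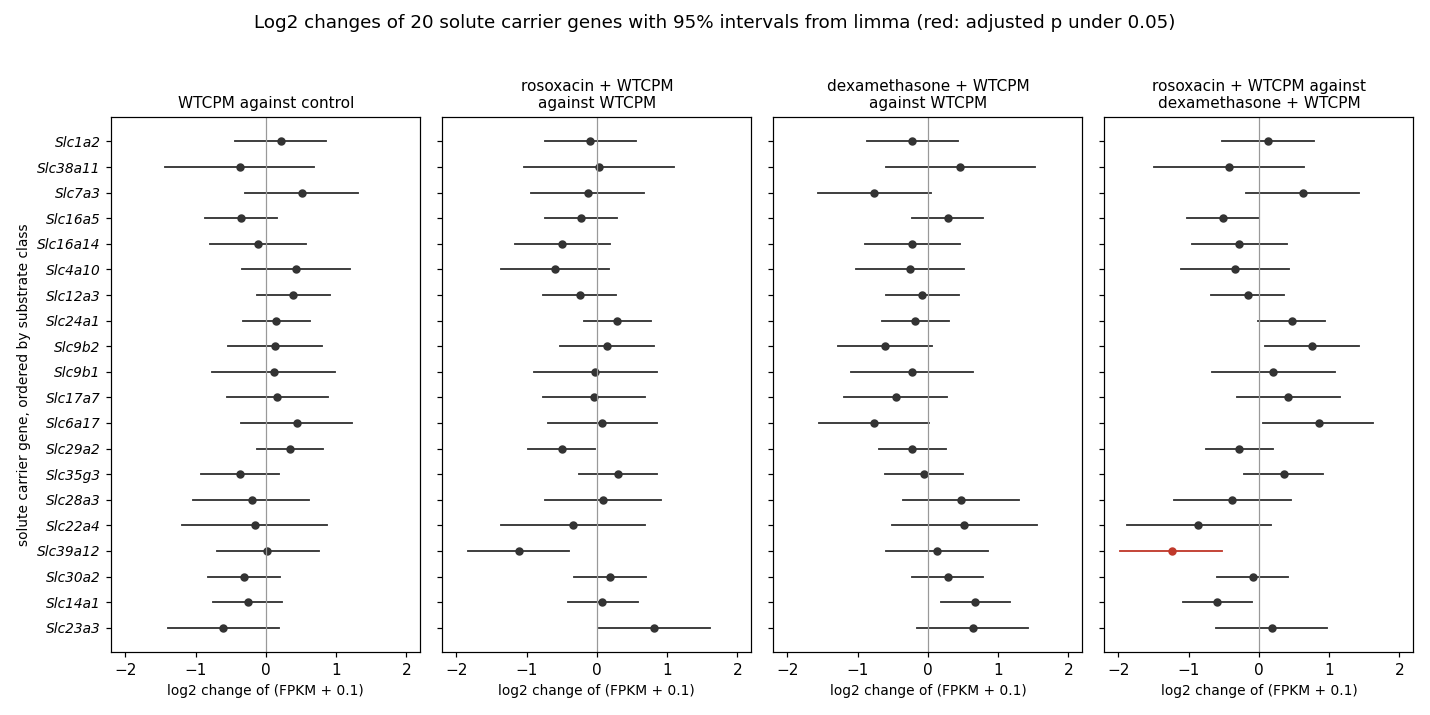
Log2 change of (FPKM + 0.1) with its 95% interval from limma (horizontal axes) for the 20 solute carrier genes (vertical axis, ordered by substrate class) in 4 comparisons. Slc39a12 in rosoxacin against dexamethasone mice (-1.24) is drawn in red as the only gene with an adjusted p under 0.05, and most intervals cover 0.

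The spread between lanes was close to that between mice for many of these genes. The SD expected of a 2-lane mean, from the difference between the lanes of a mouse, was 82.9% of the SD between mice of a group in the median gene (33.5% to 132%), against 82.1% over all genes tested, and exceeded it in 6 of the 20 genes. The 5 genes with the highest ratio of SD to mean over the 16 mice were Slc9b1 (0.724), Slc6a17 (0.702), Slc38a11 (0.65), Slc7a3 (0.613) and Slc9b2 (0.606). The median ratio was 0.477, against 0.498 over all genes tested. The 95% interval of a change reached a median of 0.70 log2 units to either side (0.48 to 1.06). In simulated data of this size, 200 of 2749 genes were raised and the noise was normal. A change of 1 on the log2 scale reached the threshold in 38% of the genes given it when dust was compared with control. The shares were 41% when rosoxacin and 33% when dexamethasone was compared with dust alone. For changes of 2 these shares were 88%, 91% and 89%. The number of raised genes was set and not estimated, and it affects the threshold. Falls were not simulated, and the added 0.1 FPKM limits how far a low gene can fall on this scale. The shares thus do not describe losses of the 20 genes. A gene that misses the threshold here is therefore not shown to be unchanged.

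**Figure D4:**
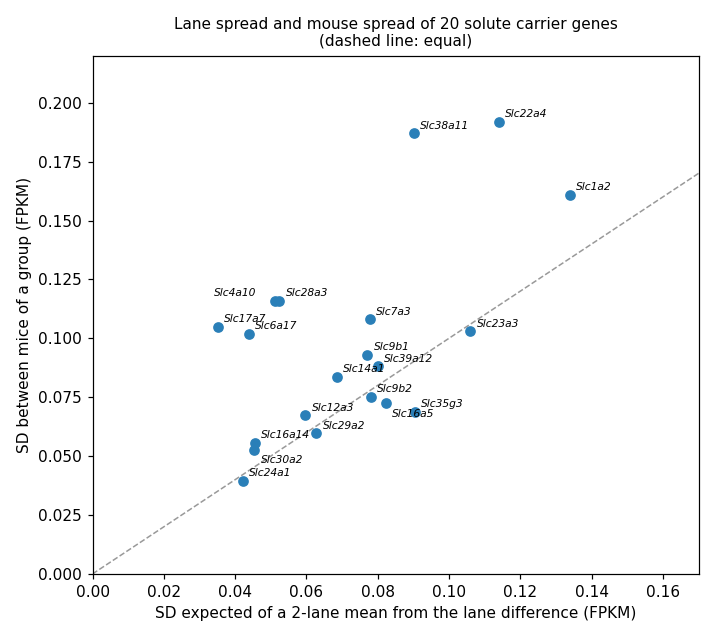
SD between mice of a group (vertical axis, FPKM) against the SD expected of a 2-lane mean from the lane difference (horizontal axis, FPKM), 1 point per solute carrier gene; the dashed line marks equal SDs. Slc17a7, Slc6a17, Slc4a10, Slc28a3 and Slc38a11 lie well above the line, and 6 genes lie below it.

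Few other transport proteins could be tested. Of 32 genes of the organic anion transporting polypeptides, ABC transporters, aquaporins and P-type ATPases with an own identifier, 7 were tested. None of them was among the 13 ABC transporters, and Aqp10-ps is named as a pseudogene. By limma 0 rose and 0 fell in any of the 6 comparisons, where 0% to 4.26% of all genes passed. In rosoxacin against dexamethasone 4 of the 7 had log2 changes above 0. Aqp11, an aquaporin of intracellular membranes, averaged 1.03 ± 0.323 FPKM in rosoxacin mice against 1.51 ± 0.202 in WTCPM, 1.43 ± 0.269 in control and 1.6 ± 0.285 in dexamethasone mice (SD, n = 4 each), and rosoxacin against dexamethasone gave -0.62 (SE 0.22, adjusted p = 0.104 by limma). Slco1a4, a carrier of bile acids and thyroid hormone, averaged 0.061 ± 0.0412 in rosoxacin against 0.202 ± 0.0717 in dexamethasone mice (n = 4 each), at an adjusted p of 0.151 by limma. Slco4a1, of the same family, went the other way, at 0.437 ± 0.164 against 0.263 ± 0.0238 FPKM. Its log2 change was 0.52 (SE 0.22, adjusted p = 0.189 by limma). These genes were chosen after their values were seen.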

How the data were processed

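Lung RNA of 16 mice was measured in 32 libraries, 2 lanes per mouse. The authors deposited one FPKM value per transcript and library. The submitters' processing notes name StringTie 2.1.5, HISAT2 2.2.1, HISAT, SAMtools 1.12, FastQC and R 4.0.4, with the build mm10. The sources used here do not give the order of these steps, their settings or the annotation. The 32 files of single libraries repeat the values of the common table.

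From these, FPKM of the 186512 transcript rows were summed per identifier and lanes were averaged. Symbols came from the name table, coordinates from GENCODE M21 on mm10, and 25424 of 26305 Ensembl identifiers received a symbol. Substrate classes were assigned from the family number. On log2(FPKM + 0.1), limma 3.58.1 (R 4.3.3; linear model, contrasts and moderated statistics with a trend) was fitted once for the 16 mice of all groups, over the 2749 annotated genes whose mean reached 0.1 FPKM. A Benjamini-Hochberg adjusted p under 0.05 passed. A fold change on this scale understates changes of low genes.

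The members, the gene lists and the tests were chosen with earlier results of these data known. The rule for named genes took members past the threshold, the 5 with the smallest p in each of the first 3 comparisons, the 2 highest per class, the 5 most variable and 2 on each side of the minimum. All 20 members are described, and those whose groups did not overlap were singled out after their values were seen. Fragments per lane were estimated from 11193 genes with 1 transcript of over 500 bases. Low values lay on multiples of a common step after scaling by length, with 43.3% to 50% of them within 3% of a multiple of 0.5 steps, where 12% would if evenly spread, so the counts are approximate and no count test was run. Labels name separate mice as replicates. The fit was tested on simulated data with 200 changed genes, where 2.4% to 5.26% of calls were false. Alternatives were other scalings, pseudocounts of 1 and 0.02, other filters, all features, single lanes, the 2 compared groups alone, no trend, array weights, library number as covariate, a replicate block and each mouse left out. The step without the 2 mice with the highest totals was added after the data were seen. Python 3.11.15 and matplotlib 3.10.9 were used.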

Additional observations from a re-analysis of the deposited data

Results flagged for a closer look

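In 7 of 80 groups of 4 mice, 1 mouse stood apart from the other 3 by a gap above Dixon's 95% critical value, where chance gives about 4. Slc1a2 was at 0.779 FPKM in WTCPM mouse 1 (the other 3 at 0.27 to 0.329). Slc7a3 was at 0.447 (0.159 to 0.205) and Slc9b2 at 0.29 (0.0987 to 0.128), both in WTCPM mouse 3. Slc14a1 was at 0.388 in control mouse 4 (0.29 to 0.305). Slc30a2 was at 0.129 in rosoxacin mouse 4 (0.177 to 0.184). In dexamethasone mice, Slc16a14 was at 0.0366 in mouse 1 (0.122 to 0.135) and Slc9b2 at 0.0787 in mouse 3 (0.0545 to 0.0584).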

How the results depend on the processing

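In rosoxacin against dexamethasone mice the count of 1 gene past limma's threshold became 2 with rescaling to TPM (Slc39a12 and Slc14a1), where 11.3% of all genes passed. In the main fit 4.26% of all genes passed. The count became 0 with quantile normalisation (1.09% of all genes passed), median-of-ratios scaling (1.49%), no filter (0.127%) and a pseudocount of 1 (2.07%). A minimum of 0.2 FPKM (10.3%), lane 1 alone (0.109%) and lane 2 alone (0.255%) also gave 0. So did the 2 compared groups alone (0.437%), no trend (2.47%) and the library number as covariate (0%). The count also became 0 with the mouse number as a replicate block (3.75%). The same held, added after the data were seen, without the 2 mice with the highest totals (2.98%). With each mouse left out in turn it was 0 to 1, where 0.509% to 5.89% of all genes passed. At the minimum of 0.2 FPKM Slc39a12 itself was not among the genes tested, and its cause of loss elsewhere was not tested. In rosoxacin against WTCPM the count of 0 became 2 with rescaling to TPM and 1 with all features, where 9.82% and 20.9% of all genes or features passed. In rosoxacin against control it became 1 with each of these, where 9.46% and 23.9% passed. With each mouse left out it was 0 to 1, where 0.4% to 4.44% of all genes passed. The gene was Slc22a4 without control 4 and Slc39a12 without rosoxacin 2, where 1.35% passed each time. Slc9b2 in dexamethasone against WTCPM reversed with lane 1 alone, to 0.09. In the other 3 comparisons the count stayed 0 under every alternative run, where at most 0.109% of all genes or features passed. Mice with the same number are separate animals, and their deviations correlated by -0.156 to 0.304 over 24 pairs, against -0.195 to 0.162 over 72 pairs with other numbers, so the numbers were not taken to pair mice. The 16 pairs of gene and comparison named by rule were followed under the alternative settings. Of their values 235 kept their direction and side of the threshold, 3 gained and 11 lost a pass, and 1 reversed. Slc39a12 in rosoxacin against dexamethasone was the only pair that passed in the main fit, so all 11 losses belong to it. Most kept values were of pairs that never passed. With a mouse left out, 14 further values of the Slc39a12 pair lost the pass. Over all 20 genes, 10 changed sign between scalings in rosoxacin against WTCPM, 9 against control and 5 against dexamethasone, where scaling shifts all genes. Few fragments per gene limit what these counts can show.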
